A study of Mus musculus with 6 samples.

Results

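Cathepsins are the main proteases of the lysosome, the acidic compartment in which cells degrade proteins taken up or discarded. Most of them are cysteine proteases of the papain family, and cathepsin D (aspartic) and cathepsin A (serine) belong to other classes. Legumain cuts after asparagine and helps to mature several cathepsins, while cystatin C is a secreted inhibitor of the cysteine cathepsins. In antigen-presenting cells, cathepsin S cuts the invariant chain Cd74 from MHC class II molecules, and cathepsin C activates the granule proteases of cytotoxic and myeloid cells. Of the 49315 genes counted, 10 are described here, namely Ctsa, Ctsb, Ctsc, Ctsd, Ctsh, Ctsl, Ctss, Ctsz, Lgmn and Cst3. They are cathepsins, legumain and cystatin C, chosen with earlier results of these data known, and all 10 had an entry in the table and were tested. Another 6 cathepsins were set apart as a list of their own, described below.

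The libraries were made from regulatory T cells (Tregs, CD4+ T cells that express Foxp3) of Foxp3-GFP reporter mice at 9 days of age, sorted from skin and from the skin-draining lymph node (SDLN), with 3 libraries per tissue and no treatment. Both tissues came from the same genotype, and the green protein made under Foxp3 was the sort marker in each. By the study's methods, digested tissue of 3 mice was pooled into a sample, CD45+ cells were enriched on beads, and live CD45+ CD4+ Foxp3-EGFP+ cells were sorted. The labels give skin as the tissue of the SDLN samples as well, so tissue was read from the titles. Libraries are named A, B and C as in the count table, and values per library are given in that order within each tissue. All 6 share the batch number 1 in the labels.

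The skin libraries stood apart from the SDLN libraries in depth and content. Total counts were 3748669 to 11741784 in skin Tregs and 47243498 to 116158706 in SDLN Tregs, and 2911 to 5317 against 12397 to 13002 genes reached 1 CPM (counts divided by the library's total and put on a common scale). A count of 3 or fewer is called the floor, the limit that a count of 0 allows, and lay at 0.255 to 0.800 CPM in skin and 0.0258 to 0.0635 CPM in SDLN. In skin Foxp3 had 0, 330 and 1 counts and Cd4 0, 1861 and 2, so these markers of the sort were at the floor in skin Tregs A and C. Most other T cell and Treg genes were well over it in the same libraries, such as Il2ra (2232 and 534 CPM in A and C), Ctla4 (1181 and 796), Cd3g (888 and 607) and Trac (217 and 973). Of 12 T cell and Treg markers, 9 were over the floor in all 3 skin libraries, and Foxp3, Cd4 and Cd3e had 0 counts in skin Tregs A. The median log2 fold change of the 12, skin over SDLN, was -0.81. The list of 19 macrophage and dendritic cell markers summed to 4314 to 8141 CPM in skin and 52.8 to 93.1 CPM in SDLN. Of its 17 genes tested, 11 were called higher in skin and 2, Itgam and Zbtb46, lower. These 2 had no count in any skin library, Flt3 reached at most 5 counts there, and Itgax and Cd14 were over the floor in skin Tregs B alone. The 12 T cell and Treg markers summed to 6080 to 9223 CPM in skin and 10414 to 11063 CPM in SDLN. In bulk samples, fewer cells of a type and less RNA per cell cannot be told apart. The keratinocyte genes Krt5, Krt14 and Trp63 were at 0 in all 6 libraries, but the epithelial gene Epcam had 595 counts in skin Tregs B. The 7 fibroblast markers summed to 0, 90.6 and 0.886 CPM in skin, with 435 counts of Col1a2 and 593 of Col3a1 in skin Tregs B, and to at most 7.56 CPM in SDLN. Of the 5 B cell markers only Cd79b had counts in skin, 24 in skin Tregs C.

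Skin Tregs held more of the summed 10 transcripts than SDLN Tregs. The sum was 8843, 5173 and 4918 CPM in skin and 1905, 1925 and 2037 CPM in SDLN, with means of 6311 ± 2196 and 1956 ± 71.4 CPM (SD, n = 3 each), a ratio of 3.23. On the TMM-scaled library, which adjusts for composition, the means were 6035 ± 472 and 1999 ± 199. In edgeR's quasi-likelihood test, with p-values adjusted over all genes tested, 5 of the 10 genes were called higher in skin (Ctsb, Ctss, Ctsc, Ctsh and Cst3), against 1.04% of the 13572 genes tested. None was called lower, against 45.3% of genes tested, where all but 27 of those called lower were at the floor in at least 1 skin library, and 0 were lower at an unadjusted p under 0.05 or with DESeq2. In 6 of the 10 every skin library lay above every SDLN library in CPM, against 2.39% of genes tested. Most genes tested were at the floor in at least 1 skin library, where this can seldom be met. The share among the other genes was not computed, so the 2.39% is a low standard for the members. The median log2 fold change was 1.77 over the 10 genes and -2.21 over all genes tested. Since 9 members were over the floor in all skin libraries, the closer comparison is with the 1646 tested genes that were too. Of those, 8.38% were called higher and 1.64% lower, with a median log2 fold change of 0.30. Without SDLN Tregs A, 3 members were called higher (Ctsb, Ctsc and Ctsh).

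**Figure D1:**
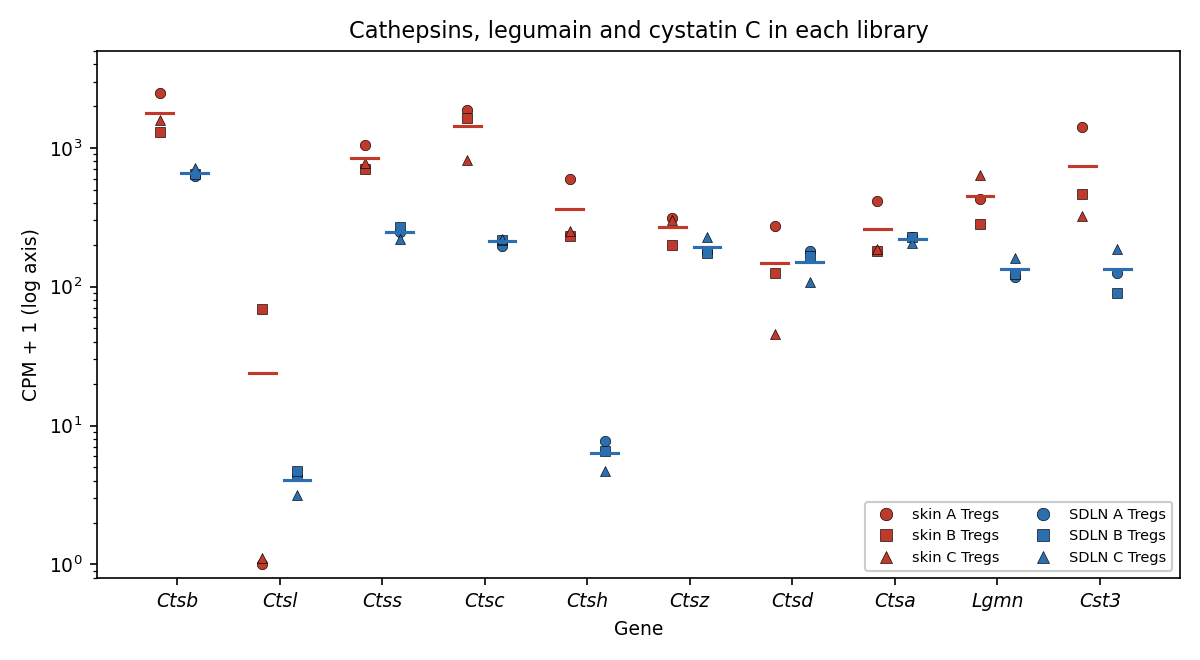
CPM + 1 (log axis) of the 10 genes in each library, with skin Tregs in red, SDLN Tregs in blue, marker shapes for libraries A, B and C, and horizontal bars for the mean of 3 libraries. For Ctsb, Ctss, Ctsc, Ctsh, Lgmn and Cst3 the lowest red point lies above the highest blue point, while Ctsl has 1 high skin library and 2 near 0.

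Among the endopeptidases, Ctsb and Ctss rose and Ctsl did not pass. Ctsb (ENSMUSG00000021939, chromosome 14, 63122462 to 63145923, GRCm38), a lysosomal endopeptidase with exopeptidase activity, was at 2474, 1293 and 1594 CPM in skin and at 626, 649 and 711 CPM in SDLN. The lowest skin library was well above the highest SDLN library, and the fitted log2 fold change was 1.35 (SE 0.280, edgeR adjusted p 0.00939). Ctsb kept its call in 13 of 15 alternatives (highest adjusted p 0.244). Ctss (ENSMUSG00000038642, chromosome 3, 95526786 to 95556403), whose product processes the invariant chain, was at 1052, 702 and 769.9 CPM in skin and 248, 269 and 218 CPM in SDLN. The groups did not overlap, and the spread within skin was the smallest of the 10 genes (highest over lowest 1.499). Its log2 fold change was 1.73 (SE 0.379, edgeR adjusted p 0.0111), and its call held in 12 of 15 alternatives (highest adjusted p 0.216) and was lost without SDLN Tregs A (0.0770). With the block by library letter Ctss was not called either (edgeR adjusted p 0.131). Ctsl (ENSMUSG00000021477, chromosome 13, 64359337 to 64370890), an endopeptidase of lysosomes and of the thymic epithelium, had 0, 800 and 1 counts in skin and 384, 272 and 103 in SDLN. In CPM these were 0, 68.1 and 0.111 against 3.31, 3.74 and 2.18, so the high skin average came from library B alone. The log2 fold change of 2.96 (SE 2.46) did not pass (edgeR adjusted p 0.484), and without skin Tregs B it was -5.25 and called lower (adjusted p 0.00697).

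The aminopeptidases Ctsc and Ctsh rose, and Ctsz did not pass. Ctsc (ENSMUSG00000030560, chromosome 7, 88278085 to 88310888), dipeptidyl peptidase I, was at 1885, 1629 and 811 CPM in skin and at 196, 217 and 219.7 CPM in SDLN. Skin Tregs C were the lowest of the skin libraries and still far above SDLN, with a log2 fold change of 2.67 (SE 0.359, edgeR adjusted p 0.00326). Ctsh (ENSMUSG00000032359, chromosome 9, 90054152 to 90076089), which also takes part in surfactant protein processing, was at 594, 230.1 and 252 CPM in skin and 6.71, 5.58 and 3.70 CPM in SDLN. Its ratio of mean CPM was 67.3, against 6.83 for Ctsc. The log2 fold change was 5.93 (SE 0.950, edgeR adjusted p 0.00416). Ctsc and Ctsh were each called in the 15 alternatives without a replicate block, with adjusted p up to 0.0441 and 0.0275, and with a block by library letter Ctsc was called (0.00564) and Ctsh was not (0.190). Counts behind the SDLN values of Ctsh were 779, 406 and 175, all over the floor. Ctsz (ENSMUSG00000016256, chromosome 2, 174427493 to 174439039), a lysosomal carboxypeptidase, was at 310.2, 198 and 299 CPM in skin and 177, 174 and 225 CPM in SDLN. Skin Tregs B fell inside the SDLN range, and the log2 fold change of 0.46 (SE 0.645) did not pass (edgeR adjusted p 0.741, 0 of 15 alternatives).

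Of the other proteases, Ctsd and Ctsa overlapped between the tissues, and Lgmn did not overlap but missed the threshold. Ctsd (ENSMUSG00000007891, chromosome 7, 142375911 to 142388038), the aspartic protease, was at 271, 124 and 44.3 CPM in skin and at 179, 166 and 107 CPM in SDLN. Skin Tregs A lay above the SDLN range, B inside it and C below it, a spread of 6.12 (highest over lowest), and its log2 fold change was -0.26 (SE 0.921, edgeR adjusted p 0.930). Ctsa (ENSMUSG00000017760, chromosome 2, 164832873 to 164841032), a serine carboxypeptidase that also protects lysosomal neuraminidase and beta-galactosidase, was at 416, 180.1 and 185 CPM in skin and 229, 228 and 205 CPM in SDLN. Only skin Tregs A exceeded SDLN, and the log2 fold change of 0.10 (SE 0.603, edgeR adjusted p 0.961) turned negative in 4 of 15 alternatives, including the fit without skin Tregs A (-0.27). Lgmn (ENSMUSG00000021190, chromosome 12, 102394084 to 102439813), legumain, was at 426, 282 and 640.3 CPM in skin and 115, 123 and 160.4 CPM in SDLN. Every skin library was above every SDLN library, but the log2 fold change of 1.80 (SE 0.678) did not pass over all genes (edgeR adjusted p 0.0811, unadjusted p 0.0387). Lgmn was called in 3 of 15 alternatives: DESeq2, limma voom and the fit without skin Tregs A. Without skin Tregs C, its highest library, the log2 fold change was 1.05 (edgeR adjusted p 0.209), and the highest adjusted p over the alternatives was 0.316.

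The inhibitor rose as well. Cst3 (ENSMUSG00000027447, chromosome 2, 148871722 to 148875692), cystatin C, was at 1416, 467 and 322 CPM in skin and at 125, 89.5 and 184 CPM in SDLN. Skin Tregs A were more than the other skin libraries together, and without them the log2 fold change was 1.57 (edgeR adjusted p 0.0439), yet the lowest skin library was still above the highest SDLN library. The log2 fold change was 2.21 (SE 0.637, edgeR adjusted p 0.0313), and the call held in 8 of 15 alternatives, with adjusted p up to 0.189. It was lost without skin Tregs B (adjusted p 0.0506) and without each SDLN library (0.118, 0.110 and 0.0584 without A, B and C). The block by library letter ended the call as well (edgeR adjusted p 0.189).

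**Figure D2:**
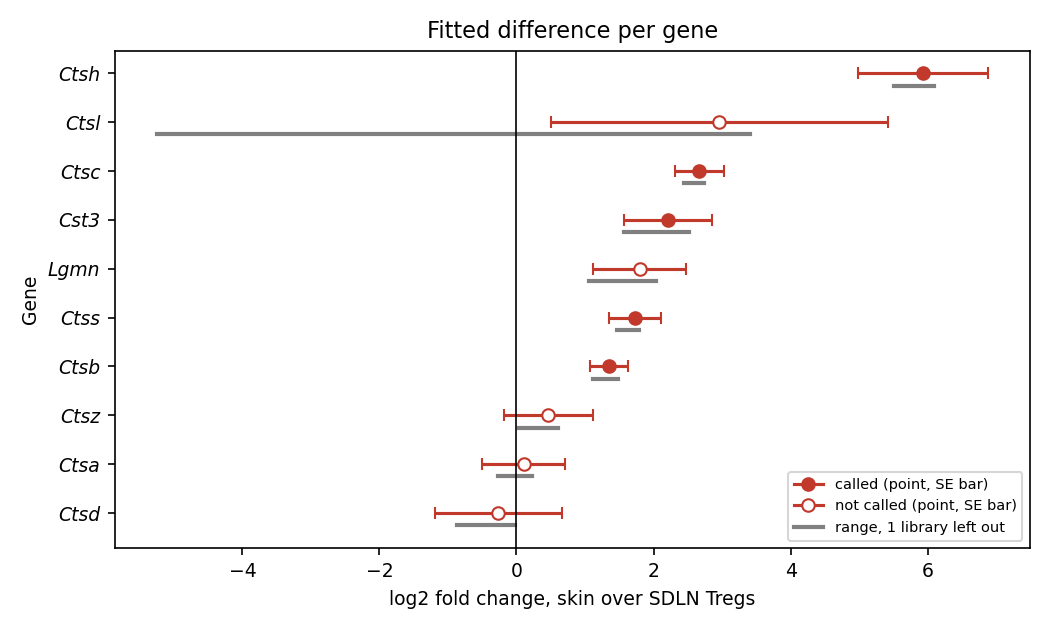
Log2 fold change of skin over SDLN Tregs per gene from the edgeR fit, with bars for the SE, filled points for genes called at an adjusted p under 0.05 and grey lines for the range over 6 fits that each left out 1 library. Ctsh stands at 5.93, and only the grey lines of Ctsl and Ctsa cross 0.

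The members did not vary alike within skin. Which skin library was highest depended on the scale. In CPM it was skin Tregs A for 8 of the 10 genes, C for Lgmn and B for Ctsl, whereas on the TMM scale it was A for 4 (Ctsh, Ctsd, Ctsa and Cst3), B for 2 (Ctsl and Ctsc) and C for 4 (Ctsb, Ctss, Ctsz and Lgmn). Skin Tregs A also had the fewest counts and the highest TMM factor, 1.42 against 0.948 and 0.783 in B and C. On the TMM scale the sums were 6297, 5490 and 6317, closer together than in CPM. The highest over the lowest skin library ran from 1.499 to 6.12 over the 9 genes other than Ctsl, and the same ratio in SDLN ran from 1.11 to 2.06 over all 10.

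To compare genes with each other, counts were divided by the length of the annotated exons and scaled to the same total in each library (TPM, a level per length). In skin the order of the mean levels was Ctss (1742 ± 319 TPM), Cst3 (1608 ± 1240), Ctsb (828 ± 253), Ctsc (696 ± 254), Lgmn (549 ± 231), Ctsz (527 ± 116), Ctsh (222 ± 118), Ctsd (173 ± 130), Ctsa (154 ± 73.4) and Ctsl (10.04 ± 17.3), each as mean and SD of 3 libraries. Neighbours in this order had overlapping ranges except Ctsz over Ctsh and Ctsa over Ctsl. In SDLN the order was Ctss (524 ± 75.9 TPM), Ctsz (384 ± 47.3), Ctsb (316 ± 19.2), Cst3 (301 ± 98.3), Ctsd (186 ± 50.8), Lgmn (165 ± 26.4), Ctsa (136 ± 12.6), Ctsc (105 ± 8.54), Ctsh (3.44 ± 1.007) and Ctsl (1.38 ± 0.407). There the ranges overlapped from Ctsb down to Ctsa, neighbour by neighbour, and not between the other neighbours.

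The make-up of the group differed between the tissues, with Ctss the largest or second largest part in each library. Ctsc made up 7.67% to 15.7% of the summed TPM of the 10 genes in skin and 4.71% to 5.28% in SDLN, and Ctsh 2.86% to 3.93% against 0.106% to 0.208%. Ctsz made up 6.41% to 11.4% in skin and 17.0% to 20.1% in SDLN, Ctsd 1.03% to 3.43% against 5.85% to 10.6%, and Ctsa 2.13% to 2.62% against 5.60% to 6.84%. The shares of these 5 genes did not overlap between tissues, whereas those of Ctss (23.0% to 31.1% against 20.7% to 28.0%), Lgmn, Cst3 and Ctsl did. Those of Ctsb overlapped narrowly, at 11.9% to 14.45% in skin and 14.41% to 15.1% in SDLN. The level of Cst3 relative to the 6 cysteine cathepsins, as a ratio of TPM, was 0.603, 0.305 and 0.206 in skin and 0.222, 0.152 and 0.308 in SDLN, so the balance of inhibitor and proteases overlapped between the tissues. These shares and ratios are descriptions and were not tested.

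**Figure D3:**
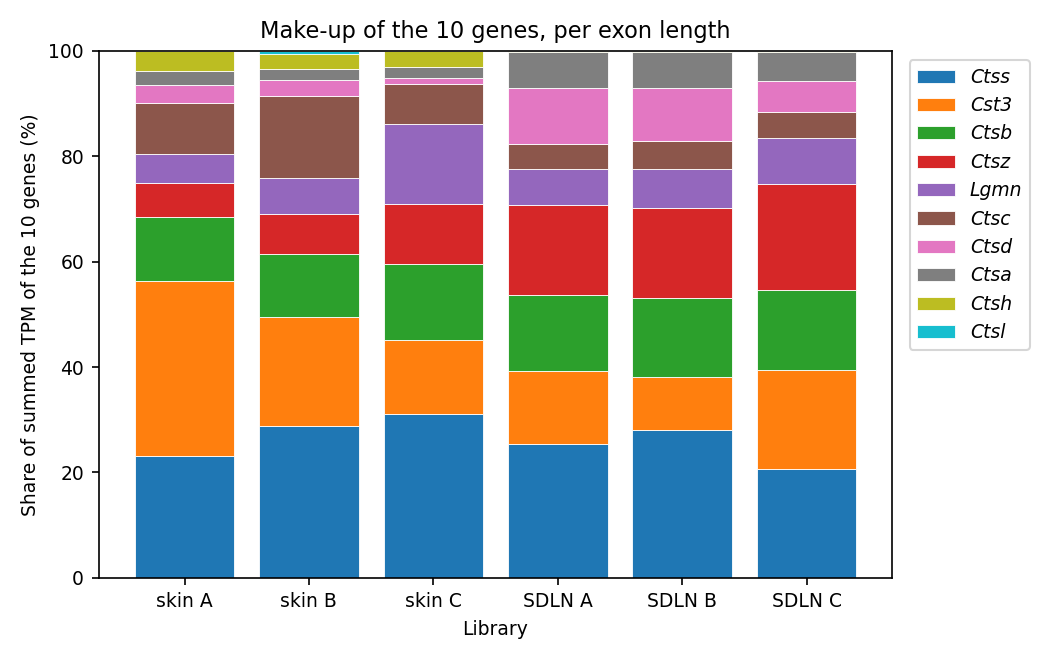
Share of each gene in the summed TPM (level per exon length) of the 10 genes, as stacked bars that add up to 100% in each of the 6 libraries. Ctsc and Ctsh take larger parts of the skin bars, and Ctsz, Ctsd and Ctsa larger parts of the SDLN bars.

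Detection in skin was compared with that of other genes at a like SDLN level. Of the 10 members, 9 were over the floor in all 3 skin libraries, the exception being Ctsl. Of the 7 with an SDLN mean of 100 to 300 CPM, 7 were over the floor in all skin libraries, against 28.1% of the 1760 genes at that level. Of the same 7, 3 were called higher, against 1.25%, a share that includes genes at the floor in skin. The members were chosen with earlier results of these data known. Of 6 other cathepsins, kept as a separate list, 0 were over the floor in all skin libraries. These counts therefore describe the chosen genes and are no result about cathepsins as a whole. Of 34 other lysosomal hydrolases and their cofactors, 8 were over the floor in all skin libraries and 11 in none, although all 34 were over it in every SDLN library. In that list 3 genes were called higher in skin and 12 lower, 11 of them without a count above the floor in skin, against the 1.04% and 45.3% of all genes tested, and the median log2 fold change was -0.0086. By smallest adjusted p the first 4 called were Idua, Galns, Gaa and Ids, which degrade glycosaminoglycans or, for Gaa, glycogen. They averaged 4.62 to 22.1 CPM in SDLN, had at most 1 count in a skin library and were called lower (edgeR adjusted p 0.00322 each). The 2 most abundant that did not pass were Man2b1, a mannosidase (1536, 384 and 0.111 CPM in skin, 244, 265 and 169 CPM in SDLN), and Grn, the granulin precursor (1794, 0.0852 and 261 against 42.9, 53.5 and 37.4 CPM). The 3 called higher, named after their values were seen, were Psap, the precursor of the saposins (2002 ± 1822 against 476 ± 85.6 CPM, edgeR adjusted p 0.0375), Gm2a, the activator of ganglioside breakdown (3295 ± 1328 against 1061 ± 183 CPM, 0.0497), and Ifi30, a thiol reductase that unfolds antigens (210.3 ± 85.6 against 14.2 ± 1.96 CPM, 0.0293; SD, n = 3 each).

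The smaller lists of lysosomal genes were read against the same shares, 1.04% of all genes tested called higher and 45.3% called lower. Of 7 other lysosomal peptidases 6 were tested, with 0 called higher and 3 lower. The 3 were Dpp7, Tpp1 and Cpq, at 7.96 ± 4.58, 127 ± 19.5 and 0.724 ± 0.461 CPM in SDLN (SD, n = 3), and they had at most 1 count in a skin library. Scpep1, a carboxypeptidase that did not pass, was at 0, 137 and 493 CPM in skin and 37.1, 46.8 and 44.6 CPM in SDLN. Prcp, another carboxypeptidase, was at 268, 147 and 0.996 against 10.5, 14.5 and 13.2 CPM and did not pass either (edgeR adjusted p 0.541 for Scpep1 and 0.274 for Prcp).

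Of 6 other cathepsins 4 were tested, with 0 called higher and 2 lower, Ctsf and Ctsw. Ctsw, a cathepsin of cytotoxic lymphocytes, was at 63.8 ± 21.1 CPM in SDLN (SD, n = 3) and at 0 counts in all skin libraries, as was Ctsf. Ctse, an aspartic protease, was at 0, 179 and 45.9 CPM in skin and 52.1, 48.8 and 46.5 CPM in SDLN and did not pass (edgeR adjusted p 0.919). Ctso was at 0, 0 and 220.2 against 55.2, 71.1 and 58.3 CPM and did not pass (0.955). Ctsk and Ctsg had 0 counts in all 6 libraries. Of 10 other inhibitors 7 were tested, with 1 called higher and 4 lower. The 4 were Serpinb6b, Ctla2b, Serpinb1a and Cst6, at 1.87 to 7.78 CPM in SDLN and at most 1 count in a skin library. Cstb, the intracellular cystatin B, was at 101, 119 and 262 CPM in skin and 101, 89.7 and 115 CPM in SDLN and did not pass (edgeR adjusted p 0.710), nor did Cst7 (0, 0 and 160.1 against 83.8, 96.1 and 72.9 CPM, 0.977). The 1 called higher, named after its values were seen, was Ctla2a, which resembles a cathepsin propeptide, at 140, 131 and 257 CPM in skin and 6.28, 5.03 and 8.996 CPM in SDLN (edgeR adjusted p 0.0242). Its near-identical neighbour Ctla2b had 0 counts in all skin libraries, and how reads were divided between the copies is uncertain.

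Of 12 lysosomal membrane genes, all tested, 2 were called higher and 2 lower, against 1.04% and 45.3% of all genes. The higher were Lamp2 (844 ± 838 against 91.7 ± 20.4 CPM, edgeR adjusted p 0.0199) and the macrophage-associated Cd68 (301 ± 14.0 against 6.66 ± 2.51 CPM, 0.00636; SD, n = 3 each). The lower were Slc11a1, a metal transporter of phagocytes, and Mcoln1, a lysosomal cation channel, at 5.37 ± 1.26 and 48.4 ± 8.77 CPM in SDLN and at most 1 count in a skin library (0.00330 and 0.00657). Laptm5 and Laptm4a did not pass, at 270 to 1251 and 113 to 260 CPM in skin and 594 to 1289 and 127 to 150 CPM in SDLN. Of 17 genes of the V-ATPase, the pump that acidifies the lysosome, 16 were tested, with 0 called higher and 1 lower and a median log2 fold change of -0.30. The 1 was Atp6v1c1, at 4, 0 and 0 counts in skin and 134 ± 18.4 CPM in SDLN (edgeR adjusted p 0.0373). Atp6ap2 (1008, 316 and 0.111 against 71.7, 78.0 and 63.1 CPM) and Atp6ap1 (64.6, 365 and 404 against 182, 179 and 143 CPM) did not pass.

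Of 13 sorting and regulator genes 11 were tested, with 0 called higher and 3 lower, Gnptab, Gga1 and Gga3, which were at 12.5 to 64.8 CPM in SDLN and at most 2 counts in a skin library. M6pr, a receptor that carries hydrolases to the lysosome, was at 20.3, 351 and 438 CPM in skin and 381, 428 and 433 CPM in SDLN and did not pass (edgeR adjusted p 0.904). Igf2r, the larger receptor of this kind, was at 0, 13.5 and 25.5 against 261, 259.5 and 299 CPM and did not pass (0.195). Of 10 genes of MHC class II processing, all tested, 6 were called higher and 1 lower, against 1.04% and 45.3% of all genes and 8.38% and 1.64% of those over the floor in all skin libraries, with a median log2 fold change of 4.996. H2-Aa, a class II chain, was at 9816, 3880 and 3166 CPM in skin and 27.2, 18.5 and 24.8 CPM in SDLN, and H2-Eb1, H2-Ab1 and H2-DMb1 rose by 7.53, 7.32 and 6.87 on the log2 scale (edgeR adjusted p 0.00322 each). H2-DMb2 and H2-Oa did not pass (0.485 and 0.953). Cd74, the substrate of cathepsin S and named for that, averaged 20958 ± 5103 CPM in the skin libraries and 422 ± 158 CPM in the SDLN libraries (SD, n = 3 each, edgeR adjusted p 0.00322).

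**Figure D4:**
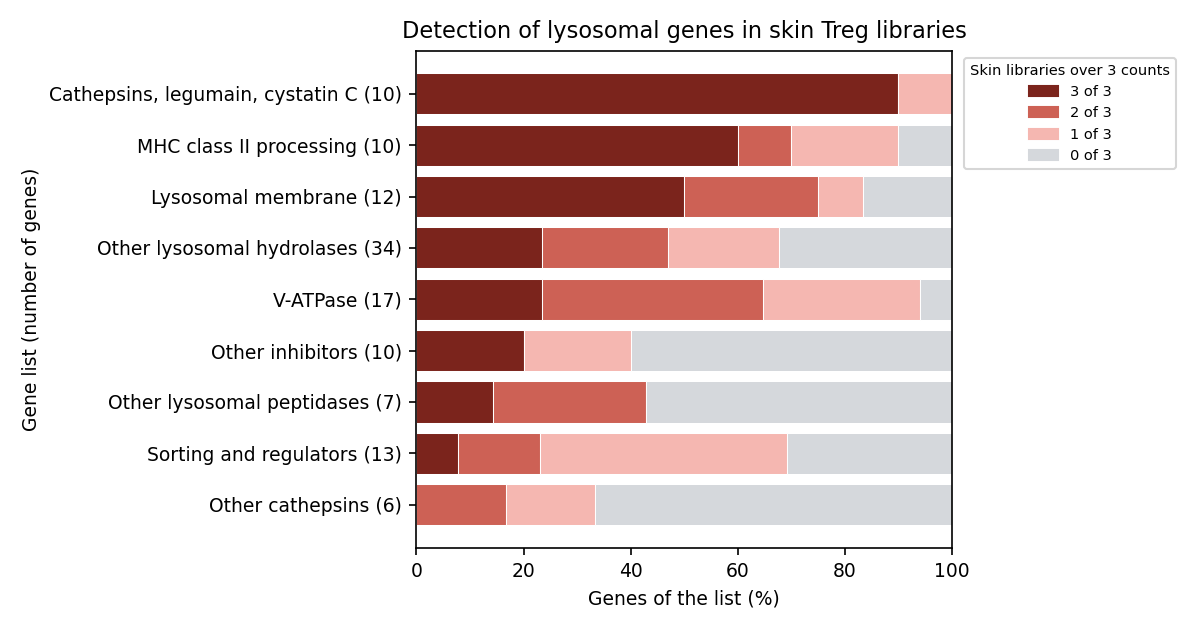
Percent of the genes of each list that were over 3 counts in 3, 2, 1 or 0 of the skin libraries, with the number of genes of the list in brackets. The 10 members have the longest darkest bar, 9 of 10, against 8 of 34 for other lysosomal hydrolases and 4 of 17 for the V-ATPase. The 6 other cathepsins, kept apart from the members, have 0 of 6.

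Macrophage and dendritic cell markers were also higher in skin, with a ratio of mean summed CPM of 89.7 against 3.23 for the members. Summed CPM of the 10 members over that of the 19 markers was 1.09, 0.801 and 1.14 in skin and 36.1, 20.7 and 31.3 in SDLN. The same sum over that of the 12 T cell and Treg markers was 1.45, 0.561 and 0.773 in skin and 0.183, 0.182 and 0.184 in SDLN. In SDLN the members were thus present at 1905 to 2037 CPM where the macrophage and dendritic list summed to at most 93.1 CPM. The part of these markers in the skin difference was not tested.

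**Figure D5:**
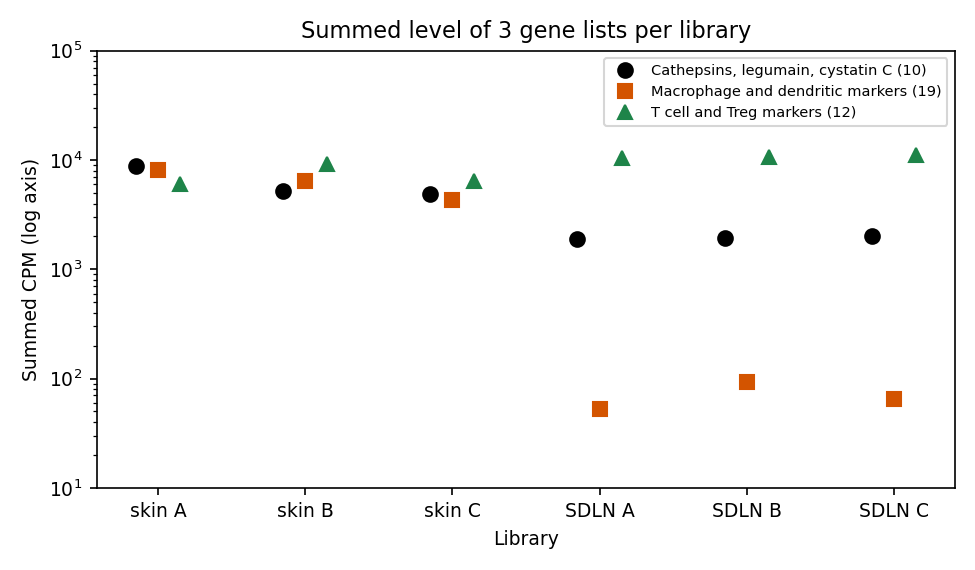
Summed CPM (log axis) of the 10 members, of 19 macrophage and dendritic markers and of 12 T cell and Treg markers in each library. The members and the macrophage and dendritic markers lie within 4314 to 8843 CPM in skin, while in SDLN the members are at 1905 to 2037 and these markers at 52.8 to 93.1 CPM.

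The upstream sequences of the members were searched for short motifs, as a description. RefSeq windows on GRCm38.p6 were found for 8 of the 10 genes (10 windows, since Ctsa and Lgmn have another annotated start), and the 250 bases before each start were read on both strands. The motif CACGTG, the core bound by the lysosomal regulators TFEB and TFE3 among other factors, was in 6.02% of the 32851 windows of all genes. It was in windows of Ctsa, Ctsd, Lgmn and Ctsl, 4 of the 5 members with a window that were not called higher, and in 0 of the 3 called members with a window (Ctsc, Ctss and Cst3). Ctsb and Ctsh, the other called members, had no window, and Ctsl was over the floor in skin Tregs B alone. With so few genes, and motifs chosen with earlier results known, no difference between called and other members can be read from these counts. Lgmn counts as not called here, although its groups did not overlap and it was called higher with DESeq2, limma voom and without skin Tregs A, and under those fits the called genes do include a CACGTG match. Of the 4 members with CACGTG, all but Ctsl also held GTCACGTG on either strand, which overlaps it and was in 1.85% of windows. Tfeb itself was at 0, 76.1 and 0 CPM in skin and 20.8, 19.8 and 12.98 CPM in SDLN, and Tfe3 at 249, 0 and 126 against 44.9, 55.6 and 15.7, and neither passed (edgeR adjusted p 0.950 and 0.780). Both were named after their values were seen. Matches are shown on the gene's strand with the motif in capitals, and a match is a description and not a binding site.

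Ctsa, chr2:164833743-164833772, plus strand, 12 bases before its other annotated start: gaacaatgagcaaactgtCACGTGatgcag
Ctsd, chr7:142388048-142388077, minus strand, 245 bases before the start: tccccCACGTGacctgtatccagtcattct
Ctsd, chr7:142387908-142387937, minus strand, 98 bases before the start: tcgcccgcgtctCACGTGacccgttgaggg
Lgmn, chr12:102439124-102439153, minus strand, 49 bases before its other annotated start: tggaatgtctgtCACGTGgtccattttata
Ctsl, chr13:64370739-64370768, minus strand, 236 bases before the start: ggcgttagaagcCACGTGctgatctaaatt

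The called members with a window held the GC box CCGCCC, which is common (32.7% of windows) and was also found for Ctsz, Ctsd and Lgmn. Ctsc also held GAGGAAGT, a site of the PU.1 type, found in 2.44% of windows, and TATAAA (12.4% of windows) was found for Ctss and Lgmn. The closest GC box of each called member and the PU.1 type match are shown in the same way, with the complement in capitals where the match is on the other strand.

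Cst3, chr2:148875562-148875591, minus strand, 67 bases before the start: gaagcagagggaGGGCGGggccgttcggaa
Ctss, chr3:95526719-95526748, plus strand, 55 bases before the start: gtgagaaggagaGGGCGGaggcagctgttc
Ctsc, chr7:88278055-88278084, plus strand, 16 bases before the start: accaccctgtaaccCCGCCCcgcggaccct
Ctsc, chr7:88277922-88277951, plus strand, 151 bases before the start: tgtcactaactaACTTCCTCaggccacctc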

How the data were processed

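The deposited table gives unnormalized counts for each Ensembl ID, and CPM and TPM were computed from it here. Per the labels and the study's methods, the authors trimmed reads with Trimmomatic 0.36, mapped them to GRCm38 with STAR 2.5.2b and made the counts of uniquely assigned exon reads with featureCounts (Subread 1.5.2). The annotation release, strand setting and duplicate handling are not given in the sources used here, so values of genes that overlap another gene on the opposite strand (Ctsb, Ctsz, Ctsa and Ctsl) are uncertain to that extent, and floors cover counting error only. Symbols, positions and exon lengths came from GENCODE M21 (GRCm38), which named 49056 of the 49315 IDs.

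Skin and SDLN Tregs (3 libraries each) were compared with edgeR 4.0.16 in R 4.3.3 (filterByExpr, TMM, glmQLFit with robust estimation, glmQLFTest, tissue as the only term), with Benjamini-Hochberg adjustment over 13572 genes and a threshold of 0.05. The SE was derived from the F statistic. No 2 libraries were identical, and the letters of the table could not be linked to the replicate numbers of the labels. P-values measure the spread between these pooled samples. Code was tested on simulated counts with a dispersion (spread beyond counting error) of 0.1, where 200 of 200 changed genes were recovered. The common dispersion fitted here was 2.04, so this gives no measure of recovery at the spread of these data. Alternatives were other scalings, DESeq2 1.42.0, limma 3.58.1 voom with quality weights, other filters on low counts, dispersions without robust estimation, drawing down to the smallest total and leaving out each library (15 in all), and a block by column letter added after seeing the data. The members, gene lists and motifs were chosen with earlier results of these data known. Named genes are the 10 members, Foxp3 and Cd4, up to 4 called genes per list (smallest adjusted p) and up to 2 abundant ones not called, marker genes at 0 or most abundant, and the 5 genes with the most similar profile. Psap, Gm2a, Ifi30, Ctla2a, Cd74, Tfeb and Tfe3 fall outside this rule, as do some marker genes, such as Ctla4, Cd3g, Cd3e, Trac and Flt3. Ctsb and Ctsh have no window in the promoter table used.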

Additional observations from a re-analysis of the deposited data

How the results depend on the processing

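Both tissues use the letters A, B and C, but neither the labels nor the methods say that a letter marks shared mice, and libraries of the same letter did not deviate together (correlations across 13572 genes of 0.020, -0.021 and 0.075). A replicate block by letter, added after seeing the data, left 2 members called higher (Ctsb and Ctsc; adjusted p 0.131 for Ctss, 0.190 for Ctsh and 0.189 for Cst3) and 7 genes of the other lysosome, inhibitor and MHC class II lists, turned Ctsl to -3.22 and called 61 genes in all higher. The number of members called higher in skin, 5 with the chosen settings, was 2 with no filter on low counts and 2 with at least 10 counts in every library (Ctsc and Ctsh in each), and ran from 3 to 6 over the 6 fits that left out 1 library, with 3 without SDLN Tregs A. The number called lower, 0, ran from 0 to 1 over those fits, the 1 being Ctsl without skin Tregs B (-5.25). Ctsl was also negative with limma voom (-2.18), and reached 3.41 without skin Tregs C. Ctsa turned negative with TMMwsp (-0.010), a minimum of 10 counts per library (-0.084), and without SDLN Tregs C (-0.011) or skin Tregs A (-0.27), with 0.23 as its highest value when 1 library was left out. Ctsd stayed negative and the other 7 members positive in each alternative that tested them. The genes of the other lysosome, inhibitor and MHC class II lists called higher, 12, were 7 with no filter and ran from 7 to 18 over the fits that left out 1 library, with 7 without SDLN Tregs A, B or C, and those called lower, 28, were 0 with at least 10 counts in every library, which removes genes at the floor by construction, and ran from 26 to 38. The cause of the other changes was not tested. Over all genes tested, those called higher, 141, were 404 with DESeq2, 77 with no filter and 81 with at least 10 counts in every library. Leaving out 1 library moved it from 71 (without SDLN Tregs A) to 324 (without skin Tregs A). Those called lower, 6142, were 9 of the 1396 genes that passed that last filter, and the median log2 fold change of the 1396 was 0.077. The floor of the skin libraries, at most 0.800 CPM, lay under the SDLN level of each member, Ctsl included.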

Other observations

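The genes outside the 10 whose CPM profile over the 6 libraries was most like the mean profile of the members, by Pearson's r of log2(CPM + 1) among 9483 genes, were Aldoa, Galnt1, Jun, Plaur and Pepd (r 0.997 to 0.989). The libraries fall into 2 tissues, so these values mostly describe genes that were higher in skin and highest in skin Tregs A in CPM, and no p is given. Aldoa, a glycolytic enzyme gene, was at 1731, 1256 and 1102 CPM in skin and at 745, 690.1 and 722 CPM in SDLN, in the order A, B, C. Pepd, the gene of a peptidase that splits proline dipeptides, was at 426, 230.1 and 164 CPM in skin and 107, 89.3 and 90.6 CPM in SDLN. Jun, an AP-1 subunit gene, was at 3041, 441 and 109 CPM in skin and 6.23, 6.21 and 4.66 CPM in SDLN.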
